A study of Gallus gallus with 12 samples.

Results

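The expression of 35 chicken genes of the amino acid response and of tRNA charging was measured in HD11 cells, a macrophage-like chicken cell line, after Se-methylselenocysteine (SeMC) or lipopolysaccharide (LPS). The genes were taken by symbol from a list of 42 that was drawn up with earlier results of these data known, and make up 35 of the 16161 genes counted. Of the 35, 25 were found under the listed symbol and 10 synthetases under an earlier symbol without the final 1 (WARS for WARS1, for example). The other 7 listed genes (ATF5, DDIT3, TRIB3, PHGDH, SHMT2, SLC3A2 and SLC1A5) were not analysed here. The 35 genes fall into 9 genes around the eIF2α kinases and ATF4, 8 enzymes of serine, one-carbon and proline metabolism, 6 amino acid transporters and 12 cytosolic tRNA synthetases.

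RNA was sequenced from 1 cell line in 3 libraries per group. Control cells received PBS, per the group name in the paper, and neither compound, and LPS cells received 100 ng/mL of LPS for 6 h. SeMC+PBS cells were kept in medium with 100 µM SeMC from about 12 h before the time of challenge and received PBS. The treatment text is the same for every library, so the doses were assigned by the group names. SeMC is a selenium-containing amino acid and LPS is a component of the outer membrane of Gram-negative bacteria. A combined SeMC+LPS group was left out, because in 16160 of the 16161 genes, and in 35 of the 35 genes described here, each count is the LPS and SeMC+PBS mean of its own replicate number after rounding down. Nothing in the labels states that the replicates were separate cultures on separate days, so the p-values measure only the spread between these libraries, which may be technical.

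When an amino acid runs short, uncharged tRNA activates the kinase EIF2AK4 (GCN2), while unfolded protein in the endoplasmic reticulum activates EIF2AK3 (PERK). Both phosphorylate the translation factor eIF2α, which lowers protein synthesis in general and raises translation of the transcription factor ATF4. In mammals ATF4 then drives genes for amino acid synthesis, amino acid uptake and tRNA charging, so its own mRNA level is only part of its regulation. Macrophages use the same transporters and one-carbon enzymes to feed glutathione, nucleotide and nitric oxide synthesis after bacterial stimulation. The roles named here come mainly from work in mammals.

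Levels are given in CPM, which are counts per 1e+06 counts of a library after TMM scaling over the 9 libraries. The log2 fold changes and their standard errors (SE) are from edgeR's quasi-likelihood test, and each adjusted p is the Benjamini-Hochberg value over all genes tested in that comparison. A gene was called at an adjusted p (FDR) under 0.05 and a fold change above 1.5 (0.585 on the log2 scale), and genes under an FDR of 0.05 were counted also without the fold-change minimum. Depth was 14972385 to 17024392 counts in Control, 13451069 to 14018893 in LPS and 10656332 to 11531551 in SeMC+PBS, so SeMC+PBS values rest on the fewest counts. As a check of the HD11 label, 12 of 12 macrophage markers had counts in every group. Their summed levels were 4510 to 4720 CPM in Control, 5270 to 5460 in LPS and 3740 to 4160 in SeMC+PBS. Having counts does not test the label, since the erythroid, fibroblast and epithelial markers found also had counts in every group. In LPS 4 of the 12 were called higher and 4 lower (33.3% each), beside 6.13% and 5.92% of all genes. Among them, CD44 rose from 98.6 to 273 CPM and CSF1R fell from 354 to 53.7 CPM. T and B cell markers (6 of 10 listed genes found) summed to 6.02 to 6.53, 4.94 to 5.51 and 8.64 to 10 CPM in Control, LPS and SeMC+PBS, with CD3E and PAX5 at 0 in all 3 SeMC+PBS libraries. Markers of fibroblasts and epithelia (3 of 9 found) summed to 10 to 13.6, 15 to 16.5 and 18.7 to 23 CPM in the same order, and erythroid markers (2 of 7 found) to 1.06 to 2.26, 1.52 to 2.24 and 1.09 to 2.76 CPM. Among these non-macrophage markers, JCHAIN (0.0822 to 1.27 CPM), HBBA (0.541 to 1.85), COL1A1 (9.1 to 15) and ALB (0.902 to 1.88) were called higher in SeMC+PBS against Control. JCHAIN and HBBA passed the filter on low counts only in the comparisons with SeMC+PBS, where their levels were highest. The direction of their rise is thus tied to the filter. SLC4A1, the other erythroid marker found, went from 1.07 CPM in Control to 0.2 in SeMC+PBS and was not tested in that comparison. The part of these markers in the results was not tested. In bulk RNA, fewer cells with a transcript and less of it per cell cannot be told apart.

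The LPS group differed from Control in 2 of these genes by more than 1.5-fold. SLC7A1, the cationic amino acid transporter CAT1 that imports arginine, rose 9.78-fold, and SESN2, the leucine-binding stress protein Sestrin 2 that restrains mTORC1, rose 1.65-fold. SLC7A1 passed the filter on low counts only through its LPS libraries, so no fall of it could have been called. ATF4 rose by 0.30 on the log2 scale, a smaller change that all 3 libraries shared. Of the 34 genes tested, 2 were called higher (5.88%) and 0 lower, beside 6.13% of all genes called higher and 5.92% called lower. At an unadjusted p under 0.05, 13 were higher and 9 were lower by edgeR, and the share of all genes at that p was not counted. That share is at least the 18.0% higher and 16.5% lower that passed an FDR under 0.05. As it was not counted, nothing is read from the 13 and 9. Under the calling rule, with its FDR and fold-change minimum, DESeq2 and limma-voom called 0 lower. Limma on quantile-normalized values and edgeR with upper-quartile scaling each called 1 lower under that rule, MTHFD1. At an FDR under 0.05 with no fold-change minimum, 12 of the 34 were higher (35.3%) and 5 were lower (14.7%), beside 18.0% and 16.5% of all genes. The remaining 17 did not pass. The median log2 fold change of the 34 genes was 0.08, and that of all 13008 genes tested was -0.0015.

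The SeMC+PBS group differed from Control in 4 of these genes by more than 1.5-fold. SLC6A9, the glycine transporter GLYT1, rose 12.6-fold, PSAT1, the transaminase of serine synthesis, rose 1.98-fold and CHAC1, which breaks down glutathione, rose 1.67-fold. PSPH, the phosphatase that releases serine in the last step of the same synthesis, fell 1.86-fold. SLC6A9 passed the filter on low counts only through its SeMC+PBS libraries, so no fall of it could have been called. Of the 34 genes tested, 3 were called higher (8.82%) and 1 lower (2.94%), beside 8.50% and 5.58% of all genes. With no fold-change minimum, 9 were higher and 9 lower (26.5% each), beside 20.3% and 19.1% of all genes, and 16 did not pass. The median log2 fold change was 0.0045, against 0.001 over all 13146 genes tested.

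LPS and SeMC+PBS were also compared directly, since both comparisons above share the Control libraries and a call in one of them does not show a difference between the treatments. In that comparison SESN2 and SLC7A1 were higher in LPS, and CHAC1, SLC7A5 and SLC6A9 were lower. These were 2 of 35 genes called higher (5.71%) and 3 called lower (8.57%), beside 10.4% and 12.5% of all genes. Here too SLC7A1 passed the filter on low counts only through LPS and SLC6A9 only through SeMC+PBS. For both, only the direction seen could have been called. With no fold-change minimum, 9 were higher and 9 lower in LPS (25.7% each), beside 27.1% and 27.2% of all genes. The median log2 fold change was 0.09, against -0.0047 over all 12979 genes tested.

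**Figure D1:**
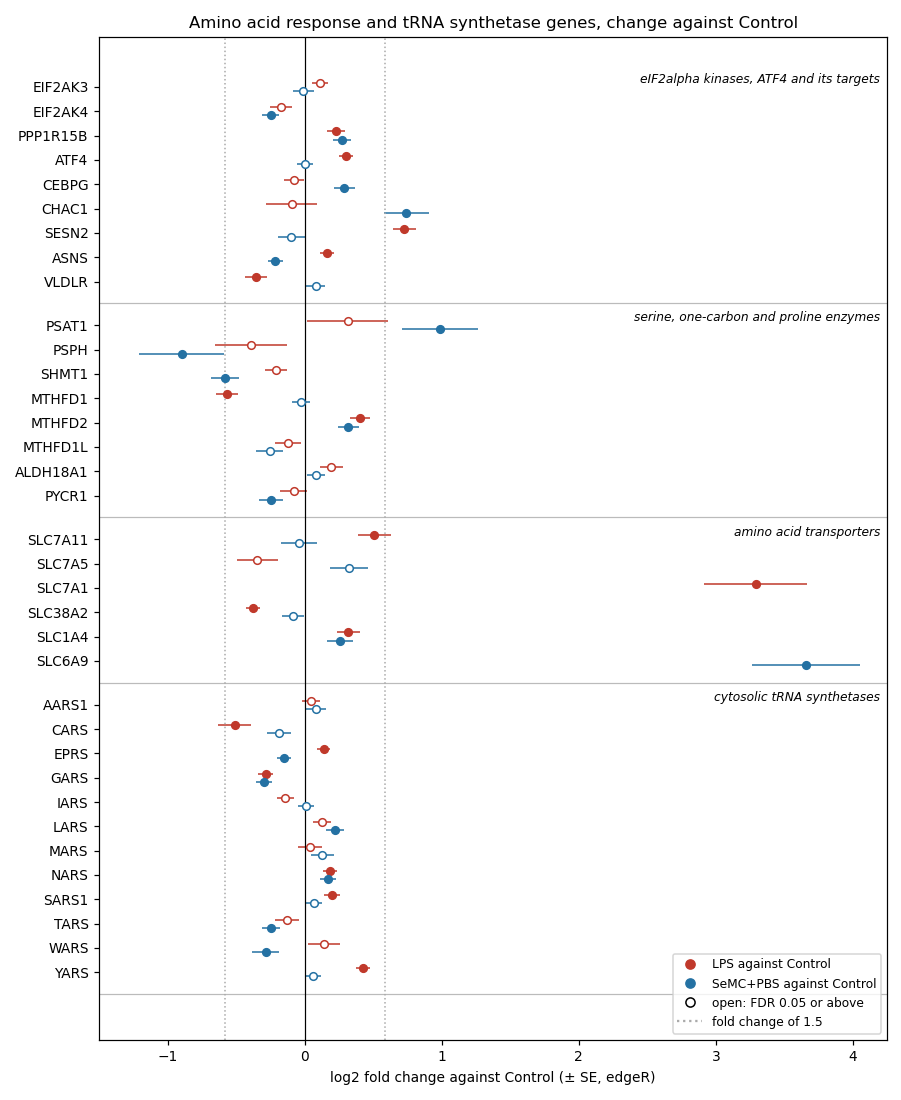
Log2 fold change (horizontal axis) of each gene against Control, with bars of 1 SE from edgeR, in LPS (red) and SeMC+PBS (blue), with the genes ordered by role. Filled points passed an FDR of 0.05, dotted lines mark a fold change of 1.5, and SLC7A1 in SeMC+PBS and SLC6A9 in LPS were not tested. The points far to the right are SLC7A1 in LPS (3.29) and SLC6A9 in SeMC+PBS (3.66), and no synthetase lies outside the dotted lines.

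Among the genes around the eIF2α kinases, ATF4 (chromosome 1, 50638488 to 50641444, GRCg7b) had levels of 395, 425 and 436 CPM in Control, 516, 505 and 528 CPM in LPS, and 418, 429 and 412 CPM in SeMC+PBS. The LPS libraries lay above all others, and those of SeMC+PBS lay within the Control range. The LPS difference was 0.30 (SE 0.05, adjusted p = 3e-04, edgeR), but it did not pass with limma on quantile-normalized values (log2 fold change 0.17, adjusted p = 0.0971). Against Control, SeMC+PBS differed by 0.0024 (SE 0.06, adjusted p = 0.977, edgeR). ATF4 was higher in LPS than in SeMC+PBS by 0.31 (SE 0.05, adjusted p = 8.86e-05, edgeR).

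SESN2 (chromosome 23, 2458641 to 2471105) is a target of ATF4 in mammals. Its levels were 33.6, 29 and 28.9 CPM in Control, 51, 52.7 and 47.6 CPM in LPS, and 29.9, 25.2 and 30.4 CPM in SeMC+PBS. All 3 LPS libraries lay above the 6 others, which overlapped. The log2 fold change was 0.73 in LPS (SE 0.08, adjusted p = 5.8e-06, edgeR) and -0.10 in SeMC+PBS (SE 0.10, adjusted p = 0.437, edgeR), and LPS exceeded SeMC+PBS by 0.83 (SE 0.09, adjusted p = 4.35e-06, edgeR). SESN2 overlaps FAM76A in the annotation, and whether strand was used in counting is not given in the sources used here, so reads of the neighbour may be included. FAM76A itself differed by 0.23 in LPS (adjusted p = 0.0517, edgeR).

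CHAC1 (chromosome 5, 23962634 to 23964689), another mammalian ATF4 target, encodes a glutamylcyclotransferase that degrades glutathione. Levels of 15.6, 13.9 and 25.2 CPM were found in Control, 16, 15.1 and 20.4 CPM in LPS, and 30.3, 28 and 33.7 CPM in SeMC+PBS. Every SeMC+PBS library was above every other library, although Control replicate 3 came close, and the LPS libraries lay within the Control range. SeMC+PBS exceeded Control by 0.74 (SE 0.16, adjusted p = 0.00256, edgeR), with 1.05 when Control replicate 3 was left out and 0.58, under the fold-change minimum, without Control replicate 2. LPS differed from Control by -0.09 (SE 0.19, adjusted p = 0.736, edgeR) and from SeMC+PBS by -0.83 (SE 0.12, adjusted p = 6.64e-05, edgeR).

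ASNS (chromosome 2, 24567634 to 24581367) encodes asparagine synthetase, a classical target of the GCN2 branch in mammals. It had 305, 286 and 280 CPM in Control, 320, 325 and 330 CPM in LPS, and 252, 244 and 254 CPM in SeMC+PBS. The 3 groups did not overlap, with LPS highest and SeMC+PBS lowest. The fall in SeMC+PBS was -0.22 (SE 0.05, adjusted p = 0.00586, edgeR) and the rise in LPS was 0.16 (SE 0.05, adjusted p = 0.0195, edgeR). The rise in LPS did not pass with limma on quantile-normalized values (adjusted p = 0.277), without LPS replicate 2 (adjusted p = 0.0638) or 3 (adjusted p = 0.102), or without Control replicate 3 (adjusted p = 0.081). Between LPS and SeMC+PBS, the difference was 0.39 (SE 0.05, adjusted p = 1.2e-05, edgeR).

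Thus CHAC1 and ASNS, both targets of ATF4 in mammals, had opposite signs in SeMC+PBS. The other 5 genes of this group moved by less than 1.5-fold in both comparisons with Control. PPP1R15B, a subunit of the phosphatase that removes the phosphate from eIF2α, had 58.5 to 62.3 CPM in Control and was higher in SeMC+PBS (71 to 74.6 CPM, 0.27, adjusted p = 0.00422, edgeR) and in LPS (68.1 to 74.9 CPM, 0.23, adjusted p = 0.0166, edgeR). The rise in LPS did not pass without LPS replicate 1 or Control replicate 1, or with limma on quantile-normalized values (adjusted p of 0.0611 to 0.0862). CEBPG, a bZIP factor that pairs with ATF4, was higher in SeMC+PBS (0.29, 54.3 to 60.8 CPM against 45.2 to 49.7 CPM in Control) and did not pass in LPS (-0.08). EIF2AK4, the amino acid sensing kinase, was lower in SeMC+PBS (-0.25, 89.2 to 97.3 CPM against 104 to 117 CPM in Control) and did not pass in LPS (-0.17), while EIF2AK3 passed in neither (0.11 and -0.01). VLDLR, a lipoprotein receptor that ATF4 induces in mammals, was lower in LPS (-0.36, 43.1 to 52.8 CPM against 57.9 to 62 CPM in Control). In the direct comparison CEBPG (-0.35) and VLDLR (-0.42) were lower in LPS.

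**Figure D2:**
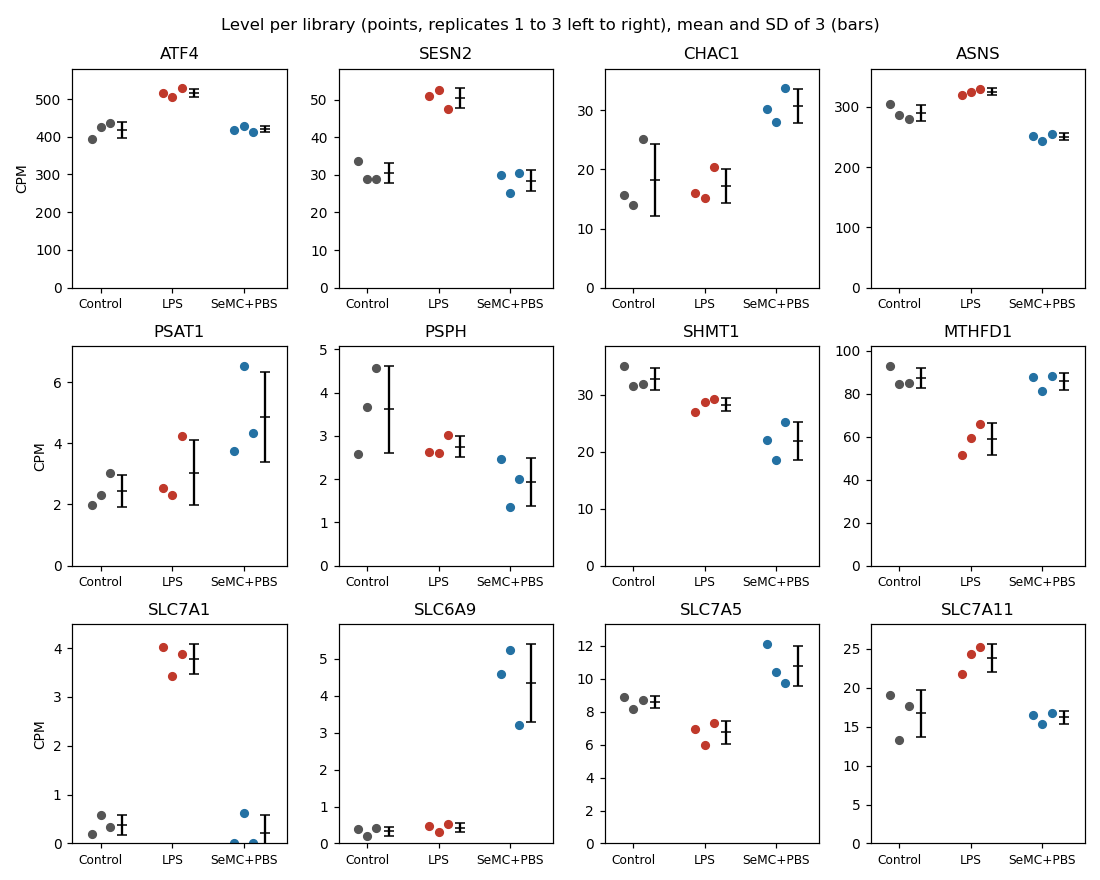
Level in CPM (vertical axis, from 0) of 12 genes in each library of Control (grey), LPS (red) and SeMC+PBS (blue), with the mean and SD of 3 libraries as bars, cut at 0. SESN2 and SLC7A1 stand apart in LPS and CHAC1 and SLC6A9 in SeMC+PBS, while ATF4 spans 395 to 528 CPM over all 9 libraries.

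In the serine and one-carbon group, PSAT1 and PSPH act one after the other in serine synthesis and moved in opposite directions in SeMC+PBS. PSAT1 (chromosome Z, 38582875 to 38598178) had 1.99, 2.29 and 3.01 CPM in Control, 2.55, 2.31 and 4.24 CPM in LPS, and 3.73, 6.51 and 4.32 CPM in SeMC+PBS. The SeMC+PBS libraries were above all Control libraries but overlapped those of LPS. The rise in SeMC+PBS was 0.98 (SE 0.28, adjusted p = 0.0113, edgeR). It did not pass without SeMC+PBS replicate 2 (0.72, adjusted p = 0.0765), without Control replicate 1 (0.86, adjusted p = 0.0558) or with limma on quantile-normalized values (0.81, adjusted p = 0.0564). In LPS the difference from Control was 0.31 (SE 0.30, adjusted p = 0.448, edgeR), and the direct difference was -0.66 (SE 0.30, adjusted p = 0.075, edgeR), so the treatments were not separated by this test.

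PSPH (chromosome 19, 5358398 to 5373639) had 2.58, 3.66 and 4.57 CPM in Control, 2.63, 2.61 and 3.03 CPM in LPS, and 2.46, 1.36 and 1.99 CPM in SeMC+PBS. The highest SeMC+PBS library was just under the lowest Control library, and LPS lay within the Control range. The fall in SeMC+PBS was -0.90 (SE 0.31, adjusted p = 0.0313, edgeR). Leaving out SeMC+PBS replicate 2 (adjusted p = 0.111) or 3 (adjusted p = 0.0667), or Control replicate 2 (adjusted p = 0.0781) or 3 (adjusted p = 0.163), ended the call. The difference from Control was -0.39 in LPS (SE 0.26, adjusted p = 0.27, edgeR), and LPS exceeded SeMC+PBS by 0.52 (SE 0.30, adjusted p = 0.164, edgeR). PSPH overlaps CCT6A, a chaperonin subunit, whose log2 fold change in SeMC+PBS was -0.06 (adjusted p = 0.426, edgeR).

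The folate enzymes gave smaller changes in larger counts. SHMT1, the cytosolic enzyme that splits serine into glycine and a one-carbon unit, was singled out after its values were seen, because it lay just inside the fold-change minimum. Its levels were 35, 31.6 and 31.9 CPM in Control, 27, 28.7 and 29.2 CPM in LPS, and 22, 18.5 and 25.2 CPM in SeMC+PBS, and the 3 groups did not overlap. SHMT1 fell in SeMC+PBS by 0.58 on the log2 scale (SE 0.11, adjusted p = 0.000595, edgeR), and did not pass in LPS (-0.21, adjusted p = 0.0563, edgeR). It overlaps SMCR8, which differed by -0.15 in SeMC+PBS (adjusted p = 0.0424, edgeR).

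MTHFD1, the trifunctional cytosolic folate enzyme that supplies purine and thymidylate synthesis, was singled out in the same way. It had 92.8, 84.8 and 84.9 CPM in Control, 51.4, 59.3 and 66 CPM in LPS, and 87.9, 81.4 and 88.2 CPM in SeMC+PBS. All LPS libraries were below the 6 others, with a difference from Control of -0.57 (SE 0.08, adjusted p = 6.24e-05, edgeR). The change in SeMC+PBS was -0.03 (adjusted p = 0.755, edgeR) and the direct difference was -0.53 (adjusted p = 0.000173, edgeR). Proliferation markers were also lower in LPS, 10 of the 10 found (of 12 listed) at an FDR under 0.05, beside 16.5% of all genes. Their median log2 fold change was -0.365, and only 1, MKI67 (362 to 160 CPM), was called lower. In SeMC+PBS 2 of the 10 were lower at that FDR, beside 19.1% of all genes, while MTHFD1 did not pass. The markers summed to 3110 to 3210 CPM in Control, 2390 to 2500 in LPS and 2900 to 3020 in SeMC+PBS. Their part in the fall of MTHFD1 was not tested.

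MTHFD2, the mitochondrial counterpart in the folate cycle, rose in both groups, by 0.40 in LPS (adjusted p = 0.000502, edgeR) and 0.32 in SeMC+PBS (adjusted p = 0.00472, edgeR). It thus moved against SHMT1 in SeMC+PBS and against MTHFD1 in LPS. Of the 3 others, PYCR1, which makes proline, was lower in SeMC+PBS (-0.25, adjusted p = 0.032, edgeR), which did not pass in 5 of 14 alternatives (adjusted p of 0.0511 to 0.17), among them DESeq2 and the fits without SeMC+PBS replicate 1 or Control replicate 1. MTHFD1L, the mitochondrial formyltetrahydrofolate synthetase (-0.26 in SeMC+PBS, adjusted p = 0.0501, edgeR), and ALDH18A1, which makes the proline precursor, passed in no comparison.

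**Figure D3:**
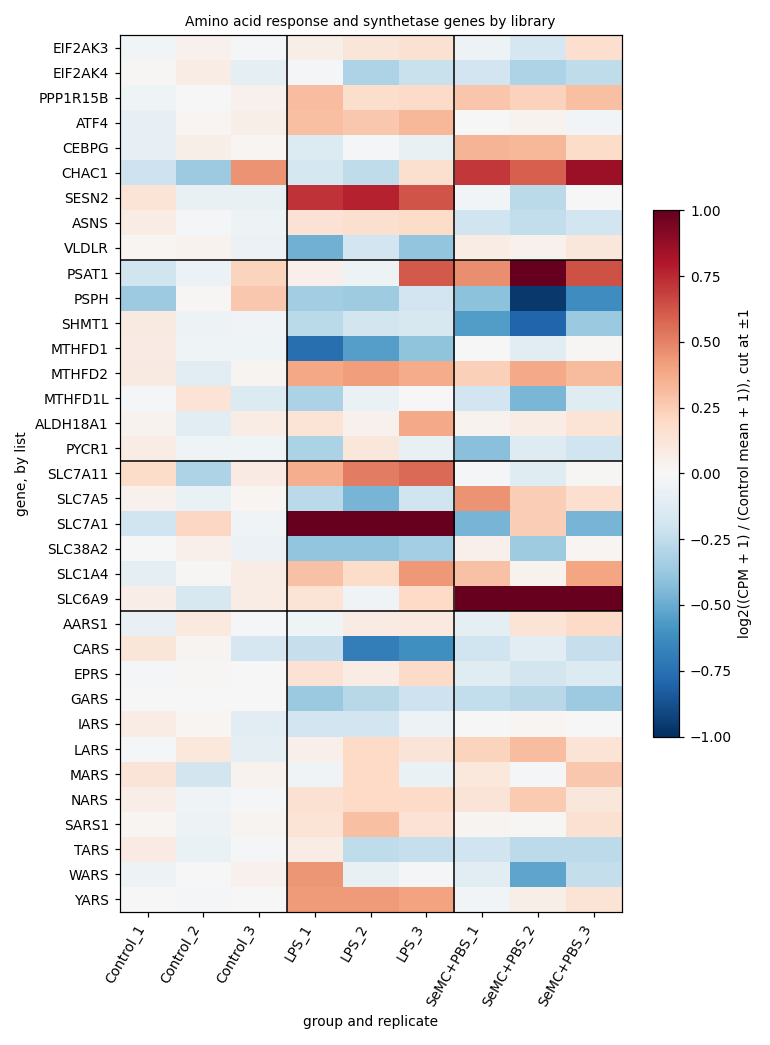
Each row is a gene and each column a library, coloured by log2 of CPM plus 1 relative to the Control mean plus 1, with colours cut at 1 in both directions and lines between the gene groups and the library groups. SLC7A1 is at the upper limit of the scale in all 3 LPS libraries and SLC6A9 in all 3 SeMC+PBS libraries, and most other rows stay pale.

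The transporters held the widest changes, both in genes with few counts. SLC7A1 (chromosome 1, 175272819 to 175316825) had raw counts of 3, 9 and 6 in Control, 52, 46 and 51 in LPS, and 0, 7 and 0 in SeMC+PBS, which correspond to means of 0.378 ± 0.197, 3.77 ± 0.307 and 0.211 ± 0.366 CPM (SD, n = 3). The LPS libraries were far above all 6 others. LPS exceeded Control by 3.29 (SE 0.38, adjusted p = 6.82e-06, edgeR) and SeMC+PBS by 4.15 (SE 0.63, adjusted p = 0.000121, edgeR). The latter value rests on SeMC+PBS replicate 2, because without it both remaining libraries were at 0 and the fitted value of 8.58 depends on the prior count and is no bound. SLC7A1 passed the filter on low counts only through its LPS libraries, and SeMC+PBS against Control was under it and was not tested. SLC7A1 overlaps MTUS2, whose raw counts went the other way in LPS, with 3 to 7 against 16 to 20 in Control. In SeMC+PBS MTUS2 had 0 to 1.

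SLC6A9 (chromosome 8, 20069533 to 20085003) had raw counts of 6, 3 and 7 in Control, 6, 4 and 7 in LPS, and 54, 58 and 37 in SeMC+PBS, with means of 0.333 ± 0.119, 0.431 ± 0.12 and 4.34 ± 1.05 CPM (SD, n = 3). The SeMC+PBS libraries were above all others, and those of LPS and Control overlapped. SeMC+PBS exceeded Control by 3.66 (SE 0.39, adjusted p = 1.05e-05, edgeR), and LPS differed from SeMC+PBS by -3.29 (SE 0.37, adjusted p = 9.14e-06, edgeR). SLC6A9 passed the filter on low counts only through its SeMC+PBS libraries, and LPS against Control was under it and was not tested. No other gene overlaps SLC6A9 in the annotation.

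SLC7A5 (chromosome 11, 17602477 to 17634911) is the light chain of LAT1, which exchanges large neutral amino acids. Levels of 8.87, 8.17 and 8.74 CPM in Control compared with 6.95, 5.96 and 7.35 CPM in LPS and 12.1, 10.4 and 9.76 CPM in SeMC+PBS. The groups did not overlap, yet neither treatment passed against Control (-0.35 in LPS, SE 0.15, adjusted p = 0.0877, and 0.32 in SeMC+PBS, SE 0.14, adjusted p = 0.0745, edgeR). The treatments differed from each other by -0.66 (SE 0.15, adjusted p = 0.0025, edgeR), which dropped under the fold-change minimum without LPS replicate 2 (-0.57) or SeMC+PBS replicate 1 (-0.57). SLC3A2, the heavy chain that LAT1 and the cystine transporter need, was not analysed here.

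SLC7A11 (chromosome 4, 28490107 to 28547306) is the cystine/glutamate exchanger that supplies cysteine for glutathione. It had 19.1, 13.3 and 17.7 CPM in Control, 21.8, 24.3 and 25.2 CPM in LPS, and 16.5, 15.3 and 16.8 CPM in SeMC+PBS. The LPS libraries were above the 6 others, and SeMC+PBS lay within the Control range. LPS exceeded Control by 0.51 (SE 0.12, adjusted p = 0.00476, edgeR), below the fold-change minimum, and by 0.61 without Control replicate 1. SeMC+PBS differed from Control by -0.04 (SE 0.13, adjusted p = 0.811, edgeR) and LPS exceeded SeMC+PBS by 0.56 (SE 0.10, adjusted p = 0.000353, edgeR).

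The other transporters, SLC38A2 and SLC1A4, carry small neutral amino acids. SLC38A2 (SNAT2), which ATF4 induces in mammals, was lower in LPS (-0.38, adjusted p = 3.47e-05, edgeR), with 254 to 264 CPM against 321 to 346 CPM in Control, and did not pass in SeMC+PBS (-0.08). SLC1A4 (ASCT1), an exchanger for alanine, serine and cysteine, was higher in LPS (0.32, adjusted p = 0.00847, edgeR) and in SeMC+PBS (0.26, adjusted p = 0.0394, edgeR), the latter with overlapping libraries. The difference in SeMC+PBS did not pass with DESeq2, with limma on quantile-normalized values, or with any single library left out except SeMC+PBS replicate 2 (adjusted p of 0.0524 to 0.183), and that in LPS did not pass without LPS replicate 3 (adjusted p = 0.0735). SLC1A4 overlaps LOC107052012, which was higher in LPS (0.94, adjusted p = 0.00541, edgeR), and CEP68, which was lower in SeMC+PBS (-0.67, adjusted p = 0.0389, edgeR) and did not pass in LPS (0.47, adjusted p = 0.0685, edgeR). The share of their reads in the SLC1A4 count was not tested.

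The tRNA synthetases, which load each amino acid onto its tRNA, changed least in size. With edgeR, DESeq2 or limma and no library left out, none of the 12 passed the 1.5-fold minimum in any of the 3 comparisons, although CARS did in LPS without LPS replicate 1 or Control replicate 3. Of all genes, 6.13% were called higher and 5.92% lower in LPS by edgeR, and 8.50% and 5.58% in SeMC+PBS. In LPS against SeMC+PBS the shares called were 10.4% and 12.5%. At an FDR under 0.05 with edgeR, 6 of 12 in LPS (4 higher, 2 lower) and 6 of 12 in SeMC+PBS (2 higher, 4 lower) differed from Control, beside 18.0% higher and 16.5% lower of all genes in LPS and 20.3% and 19.1% in SeMC+PBS. Their log2 fold changes spanned -0.51 to 0.43 in LPS and -0.30 to 0.22 in SeMC+PBS, with medians of 0.09 and 0.03. In single libraries the level ranged from 60.8% of the Control mean (CARS, in LPS) to 137% (WARS, in LPS).

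WARS, the tryptophan enzyme WARS1 that interferon induces in mammals, lies on chromosome 5 (48075750 to 48092119). Its levels were 30.5, 31.6 and 32.6 CPM in Control, 43.2, 29.9 and 31.1 CPM in LPS, and 29.3, 21.6 and 26.7 CPM in SeMC+PBS. LPS replicate 1 was high and the other LPS libraries were at the Control level, so that the difference of 0.14 (SE 0.12, adjusted p = 0.398, edgeR) turned to -0.07 without that library. The SeMC+PBS libraries were all below Control (-0.29, SE 0.10, adjusted p = 0.035, edgeR), and this did not pass with DESeq2 (adjusted p = 0.0564) or with any single library left out except SeMC+PBS replicate 1, 8 of 14 alternatives in all (highest adjusted p = 0.161). LPS exceeded SeMC+PBS by 0.44 (SE 0.14, adjusted p = 0.0195, edgeR), which did not pass without LPS replicate 1 (0.25, adjusted p = 0.0975) or without SeMC+PBS replicate 2 or 3 (adjusted p = 0.0836 and 0.0512). WARS overlaps SLC25A47, a mitochondrial carrier that moved the same way in SeMC+PBS (-0.35, adjusted p = 0.00488, edgeR), and the share of its reads in the WARS count was not tested.

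Other synthetases were singled out after their values were seen. YARS, which charges tyrosine, was the synthetase with the largest rise in LPS, with 151, 151 and 148 CPM against 112, 111 and 112 CPM in Control (0.43, SE 0.05, adjusted p = 1.06e-05, edgeR), and did not pass in SeMC+PBS (0.06). CARS, which charges cysteine, had the largest fall, with 30.3, 21.7 and 23 CPM in LPS against 38.9, 36.5 and 31.7 CPM in Control (-0.51, SE 0.12, adjusted p = 0.00402, edgeR), and its adjusted p was 0.0527 with limma on quantile-normalized values. GARS, the glycine enzyme, was lower in both groups, with 97.3 to 109 CPM in LPS and 97.6 to 106 CPM in SeMC+PBS against 126 CPM in each Control library (-0.29 and -0.30, adjusted p = 0.00109 and 0.000913, edgeR). NARS, the asparagine enzyme, was higher in both (0.18 and 0.17, adjusted p = 0.0122 and 0.0317, edgeR). It did not pass in LPS without LPS replicate 2 or 3, in SeMC+PBS without SeMC+PBS replicate 2 or Control replicate 2 or 3, or in either with limma on quantile-normalized values (adjusted p of 0.0566 to 0.403 in LPS and 0.0965 to 0.134 in SeMC+PBS).

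EPRS, the fused glutamate and proline enzyme, had 284 to 289 CPM in Control, 303 to 327 CPM in LPS and 252 to 264 CPM in SeMC+PBS. The treatments differed from each other by 0.30 (SE 0.05, adjusted p = 0.00021, edgeR), which passed in all 14 alternatives. The differences from Control were weaker: that in LPS (0.14, adjusted p = 0.0427, edgeR) did not pass in 10 of 14 alternatives (adjusted p of 0.053 to 0.586), among them each left-out library except LPS replicate 2, and that in SeMC+PBS (-0.15, adjusted p = 0.0315, edgeR) did not pass with any of the 6 libraries left out or with limma on quantile-normalized values (adjusted p of 0.0503 to 0.0809). Of the remaining synthetases, TARS, for threonine, was lower in SeMC+PBS (-0.25, adjusted p = 0.00883, edgeR). SARS1, for serine, was higher in LPS (0.20, adjusted p = 0.0143, edgeR), but not without LPS replicate 2 (adjusted p = 0.118) or with limma on quantile-normalized values (adjusted p = 0.32). LARS, for leucine, was higher in SeMC+PBS (0.22, adjusted p = 0.0163, edgeR), but not without SeMC+PBS replicate 2 or Control replicate 1 or 3, or with limma on quantile-normalized values (adjusted p of 0.0636 to 0.101). AARS1, IARS and MARS, for alanine, isoleucine and methionine, passed in neither comparison with Control. In the direct comparison EPRS, WARS and YARS were higher in LPS, and CARS (adjusted p = 0.0348, edgeR) and IARS (adjusted p = 0.0433, edgeR) were lower. Neither fall was stable: CARS did not pass in 6 of 14 alternatives (adjusted p of 0.0594 to 0.157), among them each left-out library except LPS replicate 1, and IARS did not pass in 8 of 14 (adjusted p of 0.0592 to 0.167), among them DESeq2 and each left-out library except LPS replicate 3.

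**Figure D4:**
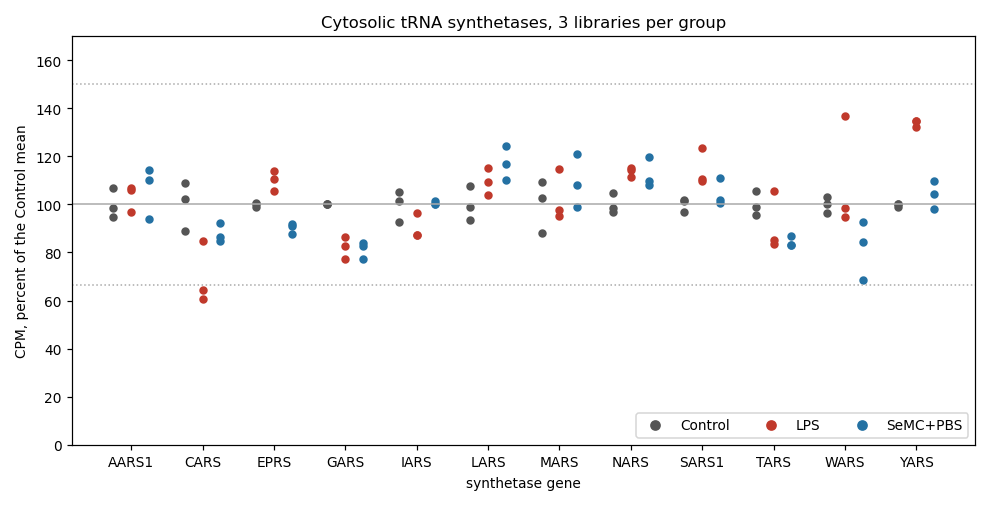
CPM of each cytosolic synthetase as a percent of its Control mean (vertical axis, from 0), 1 point per library, for Control (grey), LPS (red) and SeMC+PBS (blue), with dotted lines at a fold change of 1.5 in each direction. YARS in LPS lies in a tight cluster above Control, 2 LPS libraries of CARS lie below the lower dotted line, the lowest at 60.8%, and 1 LPS library of WARS stands alone at 137%.

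Genes of the same pathways outside the list were counted in the same fits. Over all genes, 18.0% were higher and 16.5% lower in LPS, and 20.3% and 19.1% in SeMC+PBS, at an FDR under 0.05. Under the calling rule these shares were 6.13% and 5.92% in LPS, and 8.50% and 5.58% in SeMC+PBS. Of 10 other cytosolic synthetase and scaffold genes, 1 was higher and 0 lower in LPS, and 4 were higher and 1 lower in SeMC+PBS, at an FDR under 0.05, and 0 were called in either comparison. Of 15 mitochondrial synthetases, 3 were higher in LPS, and 4 were higher (26.7%) and 1 lower in SeMC+PBS. PARS2, the mitochondrial proline enzyme, was the 1 of the 15 called higher in SeMC+PBS (6.67%), beside 8.50% of all genes. It had 13 CPM in Control and 23.7 CPM in SeMC+PBS (0.87, SE 0.13, adjusted p = 0.000127, edgeR).

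Of 19 further genes of the integrated stress response, 5 were called higher (26.3%) and 1 lower (5.26%) in LPS, beside 6.13% and 5.92% of all genes. In SeMC+PBS 0 were called higher and 1 lower (5.26%), beside 8.50% and 5.58% of all genes, with 3 higher and 5 lower at an FDR under 0.05 by edgeR. In LPS, the transcription factors ATF3 (1.29, adjusted p = 1.27e-09, edgeR) and CEBPB (1.06, adjusted p = 5.44e-10, edgeR) rose, from means of 32.9 to 80.3 CPM and of 751 to 1570 CPM. SESN1, a sestrin paralogous to SESN2, fell in LPS (-0.82, adjusted p = 5.63e-08, edgeR) from 149 to 84.8 CPM, and SESN3 was the gene of this set with the largest difference of LPS over SeMC+PBS (1.14, adjusted p = 3.29e-08, edgeR). GPT2, which makes alanine in mitochondria, fell in SeMC+PBS (-0.84, adjusted p = 0.0233, edgeR) and was lower there than in LPS by 1.11. SESN3 was also called higher in LPS against Control (0.78, adjusted p = 2.12e-07, edgeR), from 51.5 to 88.4 CPM. So SESN1 moved in the opposite direction to SESN2 and SESN3 in LPS.

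Among 17 further one-carbon, glycine and amino acid enzymes tested in LPS, 1 was called higher (5.88%) and 2 lower (11.8%), beside 6.13% and 5.92% of all genes, and 2 of 18 were called higher in SeMC+PBS (11.1%), beside 8.50% of all genes. ASS1, which makes the arginine precursor argininosuccinate, fell in LPS from 373 to 227 CPM (-0.72, adjusted p = 5.87e-08, edgeR). CTH, which makes cysteine from cystathionine, rose in SeMC+PBS from 4.1 to 7.93 CPM (0.95, adjusted p = 0.00239, edgeR), as did ALDH1L2, a mitochondrial folate enzyme (0.72, adjusted p = 0.0185, edgeR). GLDC, the glycine decarboxylase, was lower in LPS than in SeMC+PBS (-1.45, adjusted p = 0.00436, edgeR), as were PARS2 (-1.02) and CTH (-0.80). The GLDC means were low, at 0.963 CPM in Control, 0.658 in LPS and 1.83 in SeMC+PBS. GLDC did not pass in SeMC+PBS against Control (0.94, adjusted p = 0.0889, edgeR) and was not tested in LPS against Control. It passed the filter on low counts only in the comparisons with SeMC+PBS, where its level was highest. The direction of its difference is thus tied to the filter.

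Of 15 further transporters tested in each comparison with Control, 1 was called higher in LPS and 1 lower in SeMC+PBS (6.67% each). These were about the shares of all genes called (6.13% and 5.58%). At an FDR under 0.05, 2 of the 15 were higher and 6 lower in LPS, beside 18.0% and 16.5% of all genes. In SeMC+PBS 3 were higher and 5 lower at that FDR, beside 20.3% and 19.1% of all genes. The share lower was above that of all genes in both comparisons, and the share higher was not. SLC7A3, the cationic amino acid transporter CAT3 and a paralog of SLC7A1, rose in LPS from 137 to 616 CPM (2.17, SE 0.05, adjusted p = 1.44e-13, edgeR) and exceeded SeMC+PBS by 2.38 (adjusted p = 1.02e-11, edgeR). SLC7A7, a light chain of the exchanger that exports cationic amino acids, fell in SeMC+PBS from 1.18 to 0.46 CPM (-1.33, adjusted p = 0.0357, edgeR). It passed the filter on low counts only in the comparisons with Control, where its level was highest. LPS against SeMC+PBS was under the filter and was not tested, so the direction of the fall is tied to the filter. SLC7A1, with few counts, and SLC7A3 thus both rose in LPS, and whether the files split reads between them was not tested. SLC7A2, of the same list as SLC7A3, was not analysed here.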

How the data were processed

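Libraries were made from total RNA with the Illumina TruSeq kit. Per the paper and the labels, reads were mapped with HISAT2 to GRCg7b and counted per gene with HTSeq, and the authors deposited raw counts of 16161 genes by symbol. Versions, annotation release and strand setting are not given in the sources used here, and 14 of the 35 genes described overlap another gene. Groups came from the sample titles, and 0 columns without a sample were present. Coordinates are 1-based gene spans of the RefSeq annotation of GRCg7b. Levels of different genes were not compared, since no transcript lengths were used.

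Each comparison used its 6 libraries in edgeR 4.0.16 (R 4.3.3): filterByExpr with a minimum count of 10, TMM, the quasi-likelihood test and Benjamini-Hochberg adjustment over all genes tested. The SE is the absolute log2 fold change divided by the square root of F. On simulated counts with 200 genes changed 2-fold, 174 (7 others) were called in SeMC+PBS against Control, 186 (6 others) in LPS against Control and 178 (2 others) in LPS against SeMC+PBS. The changed genes were drawn only from those above a minimum mean count, with equal numbers raised and lowered. Recovery in genes with fewer counts was thus not tested. Replicates differed by more than sampling noise (chi-square per degree of freedom 3.18 to 8.56).

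Alternatives were RLE and upper-quartile scaling, no filter, all 9 libraries in 1 fit, the replicate number as a block, DESeq2 1.42.0, limma 3.58.1 (voom, and quantile-normalized log2 of count plus 1), a fold change above 1.2 and each replicate left out. The genes and lists were chosen with earlier results of these data known. Per-library values and full statistics are given for genes called in at least 1 comparison and for ATF4, ASNS, SLC7A11 and WARS (DDIT3, TRIB3 and PHGDH, also chosen, were not analysed here), for other genes ranges, and from related lists up to 3 called rises and 3 called falls per comparison. Some genes of these lists are not reported here. Figures were drawn with matplotlib 3.10.9 in Python 3.11.15.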

Additional observations from a re-analysis of the deposited data

How the results depend on the processing

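No log2 fold change that passed an FDR of 0.05 changed direction under any alternative, over 53 such results of 103, and 89 of their values under alternatives no longer passed. Against Control, those that passed under all in SeMC+PBS were ASNS, CEBPG, CHAC1, EIF2AK4, GARS, MTHFD2, PPP1R15B, SHMT1, SLC6A9 and TARS. In LPS they were GARS, MTHFD1, MTHFD2, SESN2, SLC38A2, SLC7A1, SLC7A11, VLDLR and YARS. A fold change above 1.2 gave 4111 genes and 10 of the genes described in SeMC+PBS against Control, 3597 and 12 in LPS against Control, and 5883 and 17 in LPS against SeMC+PBS. With limma on quantile-normalized values 11 genes passed an FDR of 0.05 in SeMC+PBS and 11 in LPS against Control, and over all genes in SeMC+PBS 841 were higher and 902 lower (48.3% higher), against 1117 and 733 (60.4%). Leaving out 1 library gave 2 to 4 genes called in SeMC+PBS and 2 to 4 in LPS against Control, the latter with MTHFD1 and CARS called without Control replicate 3.

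Same-numbered libraries did not deviate together (correlations of 0.073, 0.0102 and -0.0133 for SeMC+PBS with Control, -0.147, -0.195 and -0.0308 for LPS with Control, -0.00224, 0.0392 and 0.0654 for LPS with SeMC+PBS). With the replicate block, 1844, 1523 and 2971 genes were called in SeMC+PBS against Control, LPS against Control and LPS against SeMC+PBS (1850, 1567 and 2971 without it). The block added SHMT1 to the calls in SeMC+PBS and left ASNS (adjusted p = 0.055) and EPRS (0.103) in LPS, and IARS in LPS against SeMC+PBS (0.0645), over an FDR of 0.05.

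Changes of sign, none at an FDR under 0.05, are given as log2 fold changes. Over the libraries left out 1 at a time, the range in SeMC+PBS was -0.108 to 0.0622 for EIF2AK3, -0.0428 to 0.0283 for ATF4, -0.0537 to 0.0117 for MTHFD1, -0.182 to 0.0544 for SLC7A11, -0.154 to 0.0334 for SLC38A2 and -0.0476 to 0.0392 for IARS. In LPS it was -0.265 to 0.215 for CHAC1, -0.0159 to 0.498 for PSAT1, -0.203 to 0.00982 for PYCR1, -0.0613 to 0.104 for MARS and -0.0653 to 0.228 for WARS. In LPS against SeMC+PBS it was -0.022 to 0.141 for SLC1A4, -0.111 to 0.0245 for AARS1, -0.0193 to 0.0688 for GARS and -0.0132 to 0.0748 for NARS. With upper-quartile scaling, ATF4 in SeMC+PBS was -0.00388, and GARS and NARS in LPS against SeMC+PBS were -0.00158 and -0.0011. With limma on quantile-normalized values, the latter were -0.0205 and -0.0814. The cause was not tested. SLC7A1, SLC6A9, PSAT1 and PSPH have the fewest counts of the genes described, so depth limits their values.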
